A study of Mus musculus with 12 samples.

Results

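The genes described here are 32 markers of dividing cells, measured in dorsal root ganglia of adult mice. They were taken from a list of proliferation genes by matching their symbols to the Ensembl identifiers of the count tables, and all 32 were found among the 55416 genes of each table. By role they fall into 9 genes of cell cycle entry and DNA replication, 10 mitotic kinases, cyclins and degradation factors, and 13 genes of the spindle, kinetochore and cell division. The list is one of proliferation genes by function, though it was chosen with earlier results of these data known.

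The study asked which genes depend on Prdm12, a zinc finger gene of pain-sensing neurons, in the adult ganglion, and sequenced poly(A) RNA of 12 libraries from C57Bl6 mice. The 6 iKO libraries came from Rosa26Cre ERT2; Fl/Fl animals, 1 month after injection of tamoxifen, with iKO 1 to 3 female and iKO 4 to 6 male. The Cre recombinase of these animals is expressed from the Rosa26 locus, which is active in nearly all cell types, so recombination is not limited to neurons. Of the 6 controls, 4 also received tamoxifen and differed in genotype: control 1 was Rosa26Cre ERT2; Fl/+ and female, control 2 was +/+; Fl/+ and female, control 3 was +/+; Fl/+ and male, and control 4 was Rosa26Cre ERT2; +/+ and male. Controls 5 and 6 were male Rosa26Cre ERT2; Fl/Fl animals, the genotype of the iKO group, and received corn oil, the vehicle. Whether each library holds RNA of 1 animal or of several is not stated, and the p-values therefore reflect only how far these samples spread, which may be technical.

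Cells that divide switch on these genes in waves. Cyclins E1 and E2 and the replication genes, many of them targets of E2F factors, act from late G1 into S phase. The kinases, cyclins and spindle genes act in G2 and M phase. CHR elements in promoters of such genes are bound by DREAM and MuvB complexes. Sensory neurons of the adult ganglion have left the cell cycle, and glia, immune cells, vessel cells and blood-forming cells are the types in or near the ganglion that can still divide. Mki67, Top2a and Ccna2 are therefore commonly read as marks of dividing cells.

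Total counts were 13943784 to 20377766 per library. Levels are given as CPM, counts scaled to a common library size after TMM normalization. Prdm12 itself stood at 64.6 to 147 CPM in the 6 controls and 18.6 to 25.4 CPM in the 6 iKO libraries, with no overlap, and the lowest control was control 6. Sensory neuron markers were abundant in all 12 libraries (summed level 9935 to 14701 CPM). Library iKO 1 stood apart from the other iKO libraries. Its summed neutrophil and precursor, macrophage, fibroblast and endothelial markers were 2.98, 2.59, 2.56 and 2.25 times the mean of the other 5. Its sensory neuron markers were 0.729 times that mean. Control 6 had the highest skeletal muscle markers (423 CPM, against 16.7 to 93.5 in the other 11). Replicates 1 to 4 of both groups carried sample numbers 1 to 8 and replicates 5 and 6 carried numbers 14 to 17, so among the controls the injected agent, the Fl/Fl genotype and this numbering coincide and cannot be told apart.

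The promoters of 6 of these genes are shown first, because they carry the elements by which cell cycle genes are known to be switched together. They are the 2 genes of each role group with the smallest p between corn-oil and tamoxifen controls, a comparison taken up further on. Each runs from 250 bases before to 50 bases after the start site in RefSeq, build GRCm38.p6, 5′ to 3′ on the gene's strand. Capitals mark matches on either strand to the CHR element (TTTGAA), to the CCAAT box, and to E2F-like sites read as TTCCCGC or as TTGGCGC. Mcm2 and Mcm3 encode subunits of the replicative helicase, Cdk1 the main mitotic kinase, Ccnb2 its partner cyclin B2, Top2a the topoisomerase that untangles replicated DNA, and Kif11 the motor that separates the spindle poles.
Mcm2: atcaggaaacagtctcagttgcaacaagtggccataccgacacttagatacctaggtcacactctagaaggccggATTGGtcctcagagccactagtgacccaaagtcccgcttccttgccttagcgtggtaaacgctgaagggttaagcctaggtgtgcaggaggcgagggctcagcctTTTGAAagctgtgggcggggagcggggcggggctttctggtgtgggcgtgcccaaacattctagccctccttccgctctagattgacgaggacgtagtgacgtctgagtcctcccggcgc
Mcm3: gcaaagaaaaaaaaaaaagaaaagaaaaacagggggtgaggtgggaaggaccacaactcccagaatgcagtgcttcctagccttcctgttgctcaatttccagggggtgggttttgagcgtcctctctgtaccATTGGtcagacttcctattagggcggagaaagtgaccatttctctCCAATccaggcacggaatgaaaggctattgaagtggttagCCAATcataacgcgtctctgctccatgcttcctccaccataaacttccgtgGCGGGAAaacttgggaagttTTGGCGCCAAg
Cdk1: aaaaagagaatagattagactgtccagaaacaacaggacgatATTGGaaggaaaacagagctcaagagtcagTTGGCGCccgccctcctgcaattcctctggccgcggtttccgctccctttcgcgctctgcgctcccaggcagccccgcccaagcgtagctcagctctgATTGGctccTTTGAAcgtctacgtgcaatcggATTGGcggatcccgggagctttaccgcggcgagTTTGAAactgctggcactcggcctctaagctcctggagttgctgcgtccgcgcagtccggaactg
Ccnb2: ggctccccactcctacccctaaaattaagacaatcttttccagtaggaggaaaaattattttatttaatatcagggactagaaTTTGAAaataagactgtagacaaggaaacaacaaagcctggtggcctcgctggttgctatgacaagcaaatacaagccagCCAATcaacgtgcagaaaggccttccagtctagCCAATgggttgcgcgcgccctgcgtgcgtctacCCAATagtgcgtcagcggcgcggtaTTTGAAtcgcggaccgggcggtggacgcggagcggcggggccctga
Top2a: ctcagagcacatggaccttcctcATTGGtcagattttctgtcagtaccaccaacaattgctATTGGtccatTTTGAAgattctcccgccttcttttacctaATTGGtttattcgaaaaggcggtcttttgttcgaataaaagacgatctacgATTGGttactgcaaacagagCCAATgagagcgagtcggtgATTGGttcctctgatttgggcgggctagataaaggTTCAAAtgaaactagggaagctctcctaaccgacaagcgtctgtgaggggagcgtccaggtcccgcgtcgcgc
Kif11: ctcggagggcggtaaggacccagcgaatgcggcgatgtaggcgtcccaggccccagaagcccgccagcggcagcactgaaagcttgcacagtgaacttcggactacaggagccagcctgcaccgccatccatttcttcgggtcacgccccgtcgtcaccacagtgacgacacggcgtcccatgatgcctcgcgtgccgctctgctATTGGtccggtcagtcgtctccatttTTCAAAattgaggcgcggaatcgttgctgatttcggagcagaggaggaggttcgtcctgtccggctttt

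Mcm2 lies at chr6:88898731-88899030 (minus strand), Mcm3 at chr1:20820263-20820562 (minus strand) and Cdk1 at chr10:69352863-69353162 (minus strand). Ccnb2 lies at chr9:70421505-70421804 (minus strand), Top2a at chr11:99024140-99024439 (minus strand) and Kif11 at chr19:37376132-37376431 (plus strand). The Top2a promoter held 6 CCAAT boxes and 2 CHR elements, and that of Cdk1 held 3 CCAAT boxes, 2 CHR elements and 1 E2F-like site. The Mcm3 promoter held no CHR element, 3 CCAAT boxes and 3 E2F-like matches, of which the 2 to TTGGCGC lie on opposite strands and overlap each other.

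RefSeq promoters were matched for 26 of the 32 genes (27 promoters, since Prc1 has 2), and Ccne2, Ccna2, Aurkb, Foxm1, Kif20a and Tpx2 are named only. A CCAAT box was found in 23 of the 27 promoters, against 37.4% of all 32851 mouse promoters of the same length. The CHR letters were found in 15 of 27, against 17.9% of all promoters, and in all 15 a CCAAT box was present as well, against 6.95% of all promoters. Among the role groups the CHR letters were in 6 of 7 promoters of mitotic kinases, cyclins and degradation factors, in 8 of 12 of spindle genes, and in 1 of 8 of entry and replication genes, that of Mcm2. E2F-like letters were in 6 of 27, against 6.81% of all promoters: Mcm3, Mcm5, Mcm6, Ccnb1, Cdk1 and Mki67. A match is a description of these letters and not evidence of a bound site.

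**Figure D1:**
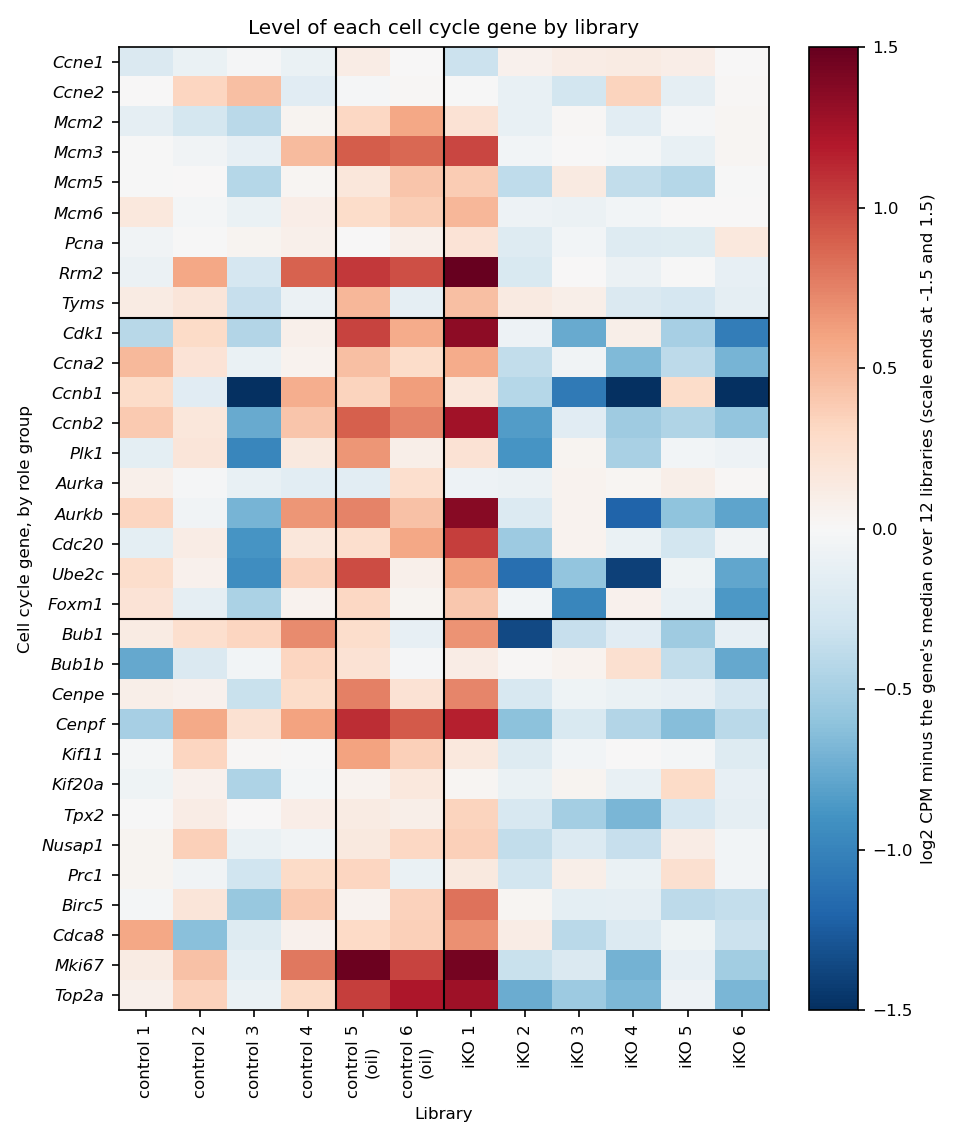
Level of each of the 32 cell cycle genes (rows, by role group) in each of the 12 libraries (columns), as log2 CPM minus the gene's median over the libraries; colours saturate at -1.5 and 1.5. Controls 5 and 6 and iKO 1 are the columns with most genes above their median, and iKO 1 was the highest of all 12 libraries for 15 of the 32 genes.

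All 32 genes were detected in every library, at low levels. Per kilobase of exon (GENCODE M21 lengths), Pcna, the sliding clamp of DNA polymerase, was the highest on average at 9.25 CPM per kb, followed by Ccne1 at 4.27 and Mcm6 at 2.32. Next came Ccne2 (1.84), Mcm5 (1.83), Aurka (1.82) and Bub1b (1.81), whose order is within their spread. At the low end stood Cdk1 (0.347), Bub1 (0.306), Cenpf (0.149) and Ccnb1 (0.11 CPM per kb). Ccnb1, cyclin B1, rested on 1 to 13 counts per library, so its fitted fold change is not quoted, though it is plotted and enters the medians and counts. Summed over the 32 genes, the level was 152, 162, 140 and 175 CPM in tamoxifen controls 1 to 4 and 210 and 198 CPM in corn-oil controls 5 and 6. It was 221 CPM in iKO 1 and 134, 144, 136, 141 and 138 CPM in iKO 2 to 6. Both corn-oil controls and iKO 1 thus lay above all other libraries, and iKO 1 was 1.6 times the mean of the other iKO libraries.

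No member passed the test between the 6 iKO and the 6 control libraries. In the quasi-likelihood test of edgeR, with p adjusted by Benjamini-Hochberg over 16384 genes, 0 of the 32 passed an adjusted p of 0.05, beside 0.946% of all genes tested, and DESeq2 and limma-voom also called 0. At an unadjusted p under 0.05 there was 1 member, Ccna2, beside 9.52% of all genes. Fitted log2 fold changes were negative for 28 of the 32 genes and positive for 4, with a median of -0.20, where the median of all genes was 0.00. The 6 iKO libraries lay below all 6 controls for 0 of the 32 genes, beside 0.665% of all genes. In bulk tissue, fewer cells of a type and less RNA per cell cannot be told apart.

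The entry and replication genes showed the smallest differences between the groups, with a median log2 fold change of -0.09 (8 of 9 negative, 0 called). Pcna was nearly level, at 21.5, 22.1, 22.9 and 23.4 CPM in the tamoxifen controls, 22.4 and 23.4 in the corn-oil controls, and 25.7, 19.5, 21.6, 19.4, 19.6 and 24.9 in iKO 1 to 6. Its highest library was 1.32 times its lowest, the narrowest range of the 32 genes. Ccne1, cyclin E1, which starts S phase, was likewise steady, at 9.88, 10.7, 11.4 and 10.7 CPM in the tamoxifen controls, 12.4 and 11.5 with corn oil, and 9.19, 12, 12.4, 12.5, 12.3 and 11.5 in iKO 1 to 6. It was the 1 gene of the 32 whose lowest library was iKO 1.

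Ccne2, cyclin E2, ranged from 5.51 to 8.44 CPM in the controls (median 6.26) and from 5.13 to 7.81 in the iKO libraries (median 5.93). The ranges overlapped in part, with iKO 3 below every control and control 3 above every iKO library. Mcm2 stood at 7.68, 7.05, 6.37 and 8.68 CPM in the tamoxifen controls, 10.5 and 12.6 with corn oil, and 9.84, 7.82, 8.57, 7.58, 8.31 and 8.6 in iKO 1 to 6. Mcm3 stood at 3.46, 3.36, 3.19 and 4.82 CPM, then 6.54 and 6.29, and then 6.95, 3.38, 3.49, 3.4, 3.21 and 3.56 in the same order. For both helicase subunits the corn-oil pair was above every tamoxifen control, and for Mcm3 iKO 2 to 6 kept to 3.21 to 3.56 CPM while iKO 1 was the highest library of all.

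Mcm5 and Mcm6, other helicase subunits, were again high in the corn-oil pair and in iKO 1. Mcm5 was 5.49 to 7.51 CPM in the tamoxifen controls, 8.28 and 9.87 with corn oil, 9.57 in iKO 1 and 5.47 to 8.12 in iKO 2 to 6. Mcm6 was 9.39 to 11.3 CPM in the tamoxifen controls, 12.2 and 13 with corn oil, 14.3 in iKO 1 and 9.52 to 10.1 in iKO 2 to 6. Rrm2, the ribonucleotide reductase subunit that supplies DNA precursors, had the widest range of this group: 2.07 to 4.55 CPM in the tamoxifen controls, 5.16 and 4.81 with corn oil, 7.11 in iKO 1 and 2.11 to 2.49 in iKO 2 to 6. Tyms, thymidylate synthase, was 2.18 to 3.16 CPM, 3.92 and 2.53, 3.8, and 2.33 to 3.05 in those 4 sets, so its corn-oil pair straddled the tamoxifen controls.

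The mitotic kinases, cyclins and degradation factors had a median log2 fold change of -0.34 in iKO against control (8 of 10 negative, 0 called). Ccna2, cyclin A2, which acts in S phase and at the start of mitosis, stood at 5.28, 4.35, 3.54 and 3.93 CPM in the tamoxifen controls, 5.16 and 4.57 with corn oil, and 5.56, 2.94, 3.64, 2.39, 2.89 and 2.33 in iKO 1 to 6. Among the iKO libraries only iKO 1 and iKO 3 reached the level of the lowest control. The means were 4.47 ± 0.681 and 3.29 ± 1.21 CPM (SD, n = 6 each), a log2 fold change of -0.53 ± 0.18 (SE), which did not pass (edgeR adjusted p = 0.29).

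Cdk1 ranged up to 1.84 CPM in the tamoxifen controls (1.13 in control 1, 1.84 in control 2 and 1.59 in control 4, with control 3 the lowest) and stood at 3.05 and 2.22 CPM with corn oil, and 3.85, 1.44, 0.897, 1.61, 1.07 and 0.737 in iKO 1 to 6. The iKO group thus held both the highest and the lowest library, and the group means were 1.83 ± 0.734 and 1.6 ± 1.15 CPM (SD, n = 6 each). Ccnb2 was 0.767 to 1.72 CPM in the tamoxifen controls, 2.4 and 2.16 with corn oil, 3.1 in iKO 1 and 0.721 to 1.15 in iKO 2 to 6. Aurkb, the kinase of the chromosomal passenger complex, was 0.59 to 1.52 CPM, 1.6 and 1.3, 2.46, and 0.418 to 0.997 in the same 4 sets. In these 3 genes iKO 1 was the highest library of all 12.

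Plk1, a kinase of mitotic entry, was 0.885 to 1.98 CPM in the tamoxifen controls, 2.76 and 1.85 with corn oil, 2.03 in iKO 1 and 0.943 to 1.79 in iKO 2 to 6. Cdc20, an activator of the anaphase-promoting complex, was 0.826 to 1.72 CPM, 1.82 and 2.28, 3.15, and 1.05 to 1.59. Ube2c, the ubiquitin-conjugating enzyme of that complex, was 0.826 to 2 CPM, 3.12 and 1.67, 2.41, and 0.597 to 1.51. Foxm1, the transcription factor of the G2 and M genes, was 1.77 to 2.83 CPM, 3.05 and 2.53, 3.26, and 1.25 to 2.56. Aurka, a kinase of the spindle poles, had the narrowest range of the group: 4.14 to 4.84 CPM, 4.14 and 5.49, 4.38, and 4.33 to 4.91, a range of 1.33-fold over all libraries, with iKO 1 not the highest iKO library. Ccnb1 was 0.177 to 0.758, 0.654 and 0.802, 0.588, and 0.0597 to 0.629 CPM, and it was the other gene of the group in which another iKO library was above iKO 1.

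The spindle, kinetochore and division genes had a median log2 fold change of -0.20 (12 of 13 negative, 0 called). Mki67, which coats mitotic chromosomes and is the standard histological mark of dividing cells, stood at 12.3, 15.4, 10.2 and 19.5 CPM in the tamoxifen controls, 31.4 and 22.8 with corn oil, and 30.6, 8.98, 9.77, 6.92, 10.4 and 7.86 in iKO 1 to 6. Only iKO 5, apart from iKO 1, came within the range of the controls. The means were 18.6 ± 7.77 and 12.4 ± 8.98 CPM (SD, n = 6 each), a log2 fold change of -0.66 ± 0.44 (SE; edgeR adjusted p = 0.67).

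Top2a stood at 5.22, 6.26, 4.6 and 6 CPM in the tamoxifen controls, 10.1 and 11.4 with corn oil, and 11.9, 2.94, 3.39, 3.1, 4.66 and 3.07 in iKO 1 to 6. The libraries formed a high set of controls 5 and 6 and iKO 1 and a lower set of the other 9. Its log2 fold change in iKO against control was -0.63 ± 0.41 (SE; edgeR adjusted p = 0.659). Cenpf, a kinetochore protein, showed the same sets, at 1.32 to 2.83 CPM in the tamoxifen controls, 4 and 3.52 with corn oil, 4.17 in iKO 1 and 1.2 to 1.59 in iKO 2 to 6.

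**Figure D2:**
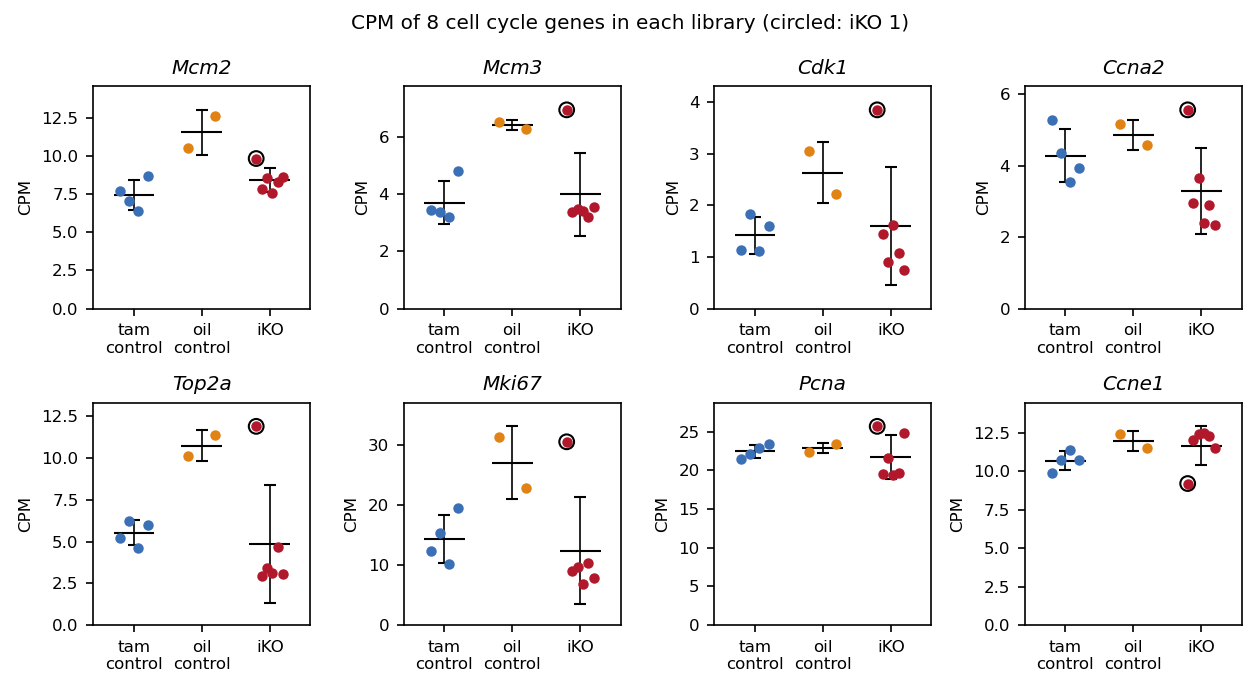
CPM (linear axis from 0) of 8 cell cycle genes in each library, in tamoxifen controls (n = 4), corn-oil controls (n = 2) and iKO libraries (n = 6), with the mean and SD of each set in black and iKO 1 circled. Mcm2, Mcm3, Cdk1, Top2a and Mki67 have both corn-oil controls above all 4 tamoxifen controls, and so does Ccne1 within a range of 9.19 to 12.5 CPM, while Pcna keeps to 19.4 to 25.7 CPM.

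Cenpe, a kinetochore motor, was 2.48 to 3.79 CPM in the tamoxifen controls, 5.3 and 3.64 with corn oil, 5.19 in iKO 1 and 2.64 to 2.99 in iKO 2 to 6. Kif11 was 5.03 to 6.39 CPM, 7.77 and 6.54, 5.72, and 4.49 to 5.13 in these sets. Tpx2, a spindle assembly factor, was tight in the controls, at 5.35 to 5.8 CPM and 5.88 and 5.74, with 6.79 in iKO 1 and 3.34 to 4.92 in iKO 2 to 6. Tpx2 and Bub1 were the 2 members for which iKO 2 to 6 all lay below all 6 controls, beside 1.27% of all genes. Bub1, a spindle checkpoint kinase, was 1.38 to 2.07 CPM, 1.53 and 1.17, 2.03, and 0.499 to 1.17, and its corn-oil pair was not above the tamoxifen controls. Its lowest control, control 6, and iKO 6 differed only past the third digit.

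Birc5 (survivin) and Cdca8 (borealin), partners of Aurkb, were again high in iKO 1. Birc5 was 2.12 to 4.14 CPM in the tamoxifen controls, 3.27 and 4.01 with corn oil, 5.56 in iKO 1 and 2.39 to 3.22 in iKO 2 to 6. Cdca8 was 1.84 to 4.22, 3.49 and 3.64, 4.54, and 2.14 to 3.05 CPM. Nusap1, which bundles spindle microtubules, was 3.54 to 4.87, 4.21 and 4.69, 4.86, and 2.94 to 4.09 CPM. The other 3 genes of the group did not stand out in iKO 1. Prc1, of the central spindle, was 3.54 to 5.31, 5.45 and 4.07, 4.81, and 3.6 to 5.16 CPM, and Kif20a, a motor of cytokinesis, was 2.24 to 3.23, 3.2 and 3.45, 3.15, and 2.83 to 3.78 CPM. Bub1b, a checkpoint protein, was 4.72 to 10.1, 9.37 and 7.96, 8.71, and 4.73 to 9.54 CPM, with its lowest values in control 1 and iKO 6.

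Counting of these genes can be affected by neighbours and copies, since the kit does not record the strand. Exons of 11 members overlap another annotated gene, among them Ccna2 (with Exosc9), Cdc20 (with Elovl1), Kif20a (with Cdc23) and Ube2c (with Tnnc2, a troponin of skeletal muscle). Ccnb1, Ccnb2, Pcna and Tyms have annotated pseudogene copies, and reads that fit both could not be assigned from the tables. Ube2c stood at 1.67 CPM in control 6, the library with the highest muscle markers, below control 5. Whether reads of Tnnc2 affect the Ube2c counts was not tested.

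The 2 kinds of control were then set against each other. Both corn-oil controls were above all 4 tamoxifen controls for 13 of the 32 genes, beside 12.9% of all genes, and below all 4 for 0, beside 13.9% of all genes. The 13 were Ccne1, Mcm2, Mcm3, Mcm5, Mcm6 and Rrm2 among the replication genes, Cdk1, Ccnb2 and Cdc20 among the mitotic regulators, and Cenpf, Kif11, Mki67 and Top2a of the spindle and division group. In the fit of corn oil against tamoxifen within the 6 controls, fold changes were positive for 28 of 32 genes. Their median was 0.44, against 0.00 for all 16791 genes tested. Both corn-oil controls were male, so with sex as a term their fold change was taken against male controls 3 and 4 alone. With edgeR 0 members and 0 genes passed an adjusted p of 0.05 (0% of all genes). The members at an unadjusted p under 0.05 numbered 7, beside 13.3% of all genes, and DESeq2 and limma-voom called 0 members as well, although DESeq2 called 183 genes. With no filter on low counts edgeR called Mcm2, Mki67 and Top2a higher with corn oil, beside 1.46% of all genes called higher. The reason for this change with the filter was not tested.

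Top2a had the smallest p of the 32 genes in this comparison, with means of 10.8 ± 0.929 CPM (SD, n = 2) in corn-oil and 5.52 ± 0.752 CPM (SD, n = 4) in tamoxifen controls. Its log2 fold change was 1.03 ± 0.19 (SE; edgeR adjusted p = 0.169). The means cover all 4 tamoxifen controls, while the fold changes here compare the corn-oil pair with male controls 3 and 4. Mcm2 had means of 11.6 ± 1.49 and 7.45 ± 0.982 CPM, a log2 fold change of 0.63 ± 0.19 (SE; edgeR adjusted p = 0.235). Mcm3 differed by 0.69 ± 0.23 (SE; edgeR adjusted p = 0.269), Cdk1 by 0.96 ± 0.35 (adjusted p = 0.296) and Mki67 by 0.87 ± 0.34 (adjusted p = 0.38). The direction in these 5 genes was the same in every pair of a corn-oil and a tamoxifen control. Ccna2, by contrast, had values of 3.54 to 5.28 CPM with tamoxifen around the corn-oil values of 4.57 and 5.16 CPM.

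Among the tamoxifen controls, the 2 male libraries stood at opposite ends. Control 4 was the highest of the 4 for 17 of the 32 genes (24.6% of all genes), and control 3 was the lowest of all 6 controls for 22 (19.9% of all genes). Control 3 carried no Cre and control 4 carried Cre with no floxed allele. Controls 2 and 3 shared a genotype, and a difference by genotype among these libraries was not tested.

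**Figure D3:**
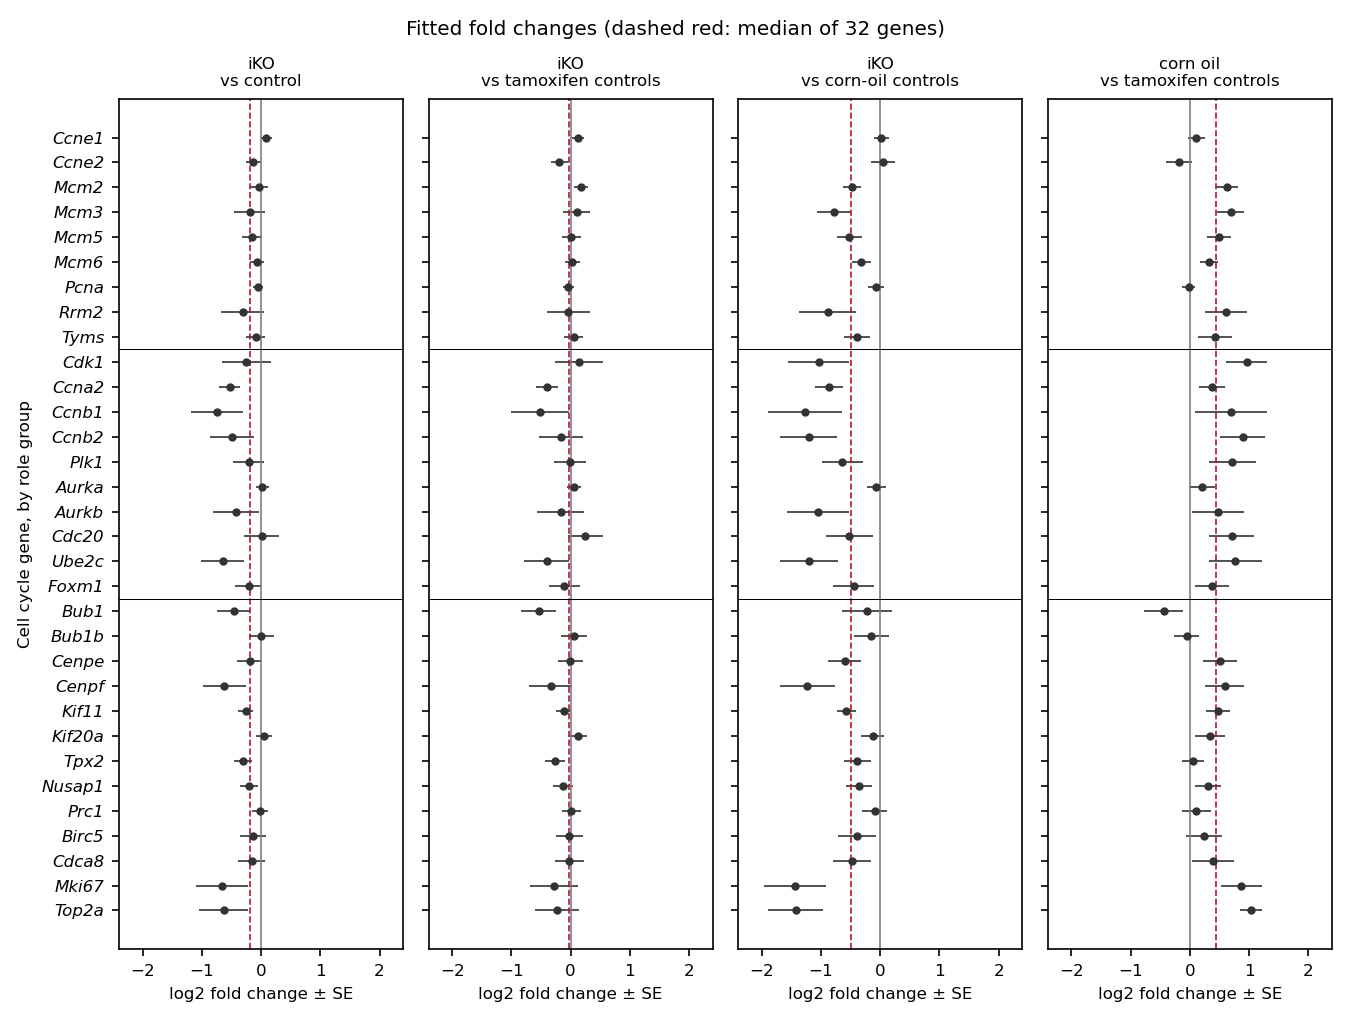
Fitted log2 fold change with its standard error for each of the 32 genes (rows, by role group) in 4 comparisons; the grey line is no difference and the dashed red line the median of the 32 genes. The medians were -0.20, -0.03, -0.50 and 0.44 from left to right, the comparisons share libraries, and Ccnb1 rests on 1 to 13 counts per library. Through the sex term, the right panel compares the corn-oil pair with male controls 3 and 4.

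The iKO group was next set against each kind of control, in fits that share the iKO libraries. Against the 4 tamoxifen controls the genes were centred near no difference: 20 of 32 were negative, the median was -0.03 and 0 were called (1.35% of all genes), with 1 at an unadjusted p under 0.05, beside 17% of all genes. Bub1 stood at -0.54 ± 0.30 (SE; edgeR adjusted p = 0.386), and Ccna2 stood at -0.40 ± 0.18 (adjusted p = 0.284). Mcm2 stood at 0.18 ± 0.12 (adjusted p = 0.449). Here limma-voom and DESeq2 called 0 as well.

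Against the 2 corn-oil controls 30 of 32 were negative, the median was -0.50, and 0 were called by edgeR, DESeq2 or limma-voom (0.146% of all genes by edgeR). An unadjusted p under 0.05 was reached by 10 members, beside 5.3% of all genes. Ccna2 stood at -0.87 ± 0.24 (SE; edgeR adjusted p = 0.414), Kif11 at -0.57 ± 0.16 (adjusted p = 0.441) and Mcm2 at -0.48 ± 0.15 (adjusted p = 0.587). Top2a and Mki67 had the largest differences, at -1.43 ± 0.47 and -1.44 ± 0.52 (adjusted p = 0.658 and 0.764). For 23 of the 32 genes, iKO 2 to 6 all lay below both corn-oil controls, beside 7.58% of all genes. With no filter on low counts edgeR called 7 members lower, beside 0.672% of all genes called lower: Rrm2, Ccna2, Ccnb2, Ube2c, Cenpf, Mki67 and Top2a. With the filter the edgeR adjusted p of Mki67 was 0.764, although it had 116 to 572 counts per library. Why the filter changed these calls was not tested.

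Controls 5 and 6 and iKO 5 and 6 shared sex, genotype and run of sample numbers and differed by label in the agent alone, so here tamoxifen itself and the loss of Prdm12 cannot be told apart. In a fit of these 4 libraries all 32 genes were negative, with a median of -0.58. Both corn-oil controls were above both iKO libraries for 26 of 32, beside 19.5% of all genes. Cenpf, Mki67 and Top2a fell, 3 of 32 beside 0.267% of all genes called lower. Mki67 fell by 1.56 ± 0.19 and Top2a by 1.48 ± 0.22 on the log2 scale (SE; edgeR adjusted p = 0.0141 for both), and Cenpf by 1.51 ± 0.28 (adjusted p = 0.0444). These differences rest on 2 libraries a side. In the 8 libraries numbered 1 to 8, with tamoxifen in all, the median was 0.00. There 0 of 31 members were called by edgeR, beside 0.211% of all genes, with 1 at an unadjusted p under 0.05, beside 8.18% of all genes. These 8 include iKO 1, the highest of the iKO libraries for 25 of the 32 genes. Neither this fit nor the interaction that follows was repeated without iKO 1. The difference of the iKO effect between the runs was tested as an interaction: 0 members and 0% of all genes passed (edgeR), with 4 of 32 members and 3.22% of all genes at an unadjusted p under 0.05, a median of -0.50 and 26 of 32 negative.

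The count of members called in iKO against control changed when library iKO 1 was left out. It was the highest of the 6 iKO libraries for 25 of the 32 genes, beside 31.7% of all genes. Its Aurkb, Mki67, Top2a, Ccnb2 and Cdk1 were 3.59, 3.48, 3.46, 3.4 and 3.34 times the mean of the other 5. Its Pcna was 1.22 times, Kif20a 1.01 times, Aurka 0.937 times and Ccne1 0.758 times that mean. This library was set apart after its values had been seen, and each other library was also left out in turn, which called 0 members in iKO against control.

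Without iKO 1, Ccna2, Cenpf and Top2a fell in iKO against control, 3 of 32 beside 1.01% of all genes called lower. Ccna2 fell by 0.67 ± 0.14 on the log2 scale (SE; edgeR adjusted p = 0.0192), Cenpf by 0.96 ± 0.23 (adjusted p = 0.0417) and Top2a by 1.04 ± 0.23 (adjusted p = 0.0304). Mki67 stood at -1.03 ± 0.28 and did not pass (adjusted p = 0.104), and the median of the 32 genes was -0.30 with 29 negative. Against the tamoxifen controls alone 4 members fell without iKO 1, beside 2.92% of all genes called lower: Bub1 (-0.83 ± 0.23), Cenpf (-0.73 ± 0.22), Top2a (-0.68 ± 0.15) and Ccna2 (-0.55 ± 0.14), with edgeR adjusted p of 0.0139 to 0.0491. Against the corn-oil controls alone 6 fell, beside 0.504%: Top2a (-1.64 ± 0.18), Mki67 (-1.63 ± 0.24), Cenpf (-1.41 ± 0.27), Ccnb2 (-1.40 ± 0.30), Ccna2 (-0.93 ± 0.18) and Mcm3 (-0.87 ± 0.18), with edgeR adjusted p of 0.000374 to 0.0365. Ccna2, Cenpf and Top2a were thus called lower in each of the 3 fits without iKO 1, which share their iKO libraries.

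Sex was tested in the same way, and a fit by numbering was made within the iKO group. Male against female, with group in the fit, called 0 of 32 by edgeR, DESeq2 and limma-voom, beside 0.0549% of all genes, with a median of -0.11 and 23 negative. Ccna2 was the 1 member at an unadjusted p under 0.05, at -0.43 ± 0.18 (SE; edgeR adjusted p = 0.904). The median was 0.09 without iKO 1, which is female. In the male libraries alone, with the run of sample numbers as a term, 2 members fell in iKO against control, beside 0.603% of all genes called lower: Cenpf by 1.27 ± 0.23 and Top2a by 1.23 ± 0.20 on the log2 scale (SE; edgeR adjusted p = 0.0145 and 0.00773), and there the corn-oil pair makes up 2 of the 4 controls. The test of the iKO effect between males and females gave 0 of 32 members called and 0% of all genes (edgeR), with 4 of 32 members and 3.59% of genes at an unadjusted p under 0.05. Within the iKO group, libraries 5 and 6 were set against 1 to 4 with sex as a term. Libraries 4 to 6 are male and 1 to 3 female, so this fit compared 5 and 6 with iKO 4 alone. The median was 0.02 and Bub1b stood at -0.81. The fit cannot tell the numbering from the state of that 1 library.

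The other genes of the cell cycle, 114 found in the tables, were read from 5 lists. Of the 107 tested, 0 were called in iKO against control, and the median was -0.08. An unadjusted p under 0.05 was reached by 11 of them, beside 9.52% of all genes. The G1 cyclins and kinases, which hold cells ready to enter S phase, had a median of -0.01 (3 of 6 negative), and the smallest p was that of Cdk2, at 5.45 to 7.27 CPM in the controls, 9.84 in iKO 1 and 4.28 to 5.82 in iKO 2 to 6. The inhibitors of these kinases, which keep resting cells out of the cycle, had a median of 0.01 (3 of 7 negative), and Cdkn2d (p19), with the smallest p, stood at 69.8 to 83.8 CPM in the controls and 80.3 to 88.6 in the iKO libraries. Cdkn1a (p21) stood at 47.3 to 62.3 CPM in the controls and at 88.3 CPM in iKO 1 against 51.2 to 64.1 in iKO 2 to 6. Cdkn1b (p27) stood at 80.2 to 95.9 CPM in the controls and 73.2 to 90.6 in the iKO libraries.

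The RB, E2F and DREAM list, the regulators of both waves, had a median of -0.06 (12 of 18 negative). E2f5 had its smallest p and its highest fold change (0.21 ± 0.10 SE; edgeR adjusted p = 0.553), and E2f8, a repressor of the E2F family, its lowest. E2f8 stood at 1.45, 1.71, 0.826 and 1.38 CPM in the tamoxifen controls, 3.05 and 2.71 with corn oil, and 2.78, 0.776, 0.947, 0.477, 0.944 and 0.799 in iKO 1 to 6. Controls 5 and 6 and iKO 1 were its 3 highest libraries, as for Top2a. Its log2 fold change was 1.39 ± 0.33 in corn oil against tamoxifen (SE; edgeR adjusted p = 0.217) and -0.80 ± 0.43 in iKO against control (adjusted p = 0.588). Rb1 was level, at 41.3 to 48.4 CPM in the controls and 39.7 to 49.8 in the iKO libraries.

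The other replication genes had a median of -0.07 in iKO against control (21 of 30 negative) and 0.05 in corn oil against tamoxifen. Tk1, the thymidine kinase of S phase, had the smallest p, at -0.40 ± 0.14 (SE; edgeR adjusted p = 0.35), and the list ran from Uhrf1 at -0.46 ± 0.46 to Fen1 at 0.39 ± 0.19. The other mitosis genes had a median of -0.19 (37 of 46 negative) and ran from Dlgap5 at -0.75 ± 0.48 to Spc24 at 0.41 ± 0.25. Of the 46, 8 were at an unadjusted p under 0.05, beside 9.52% of all genes. Fam83d, a spindle protein, stood at 3.45 to 5.74 CPM in the controls and 1.82 to 4.01 in the iKO libraries (-0.57 ± 0.19 SE; edgeR adjusted p = 0.254), and its highest library was control 5. In corn oil against tamoxifen these 5 lists had 0 genes called and 13 of 110 at an unadjusted p under 0.05, beside 13.3% of all genes.

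The summed red-cell markers, like the summed cell cycle genes, were highest in controls 5 and 6 and iKO 1. Red-cell markers summed to 374, 385, 502 and 502 CPM in the tamoxifen controls, 568 and 531 with corn oil, 528 in iKO 1 and 304, 373, 349, 279 and 302 in iKO 2 to 6. Of the 12 red-cell markers tested, 12 were negative in iKO against control (median -0.72, 0 called) and 11 positive in corn oil against tamoxifen (median 0.83, 0 called), and 9 had both corn-oil controls above all tamoxifen controls. These sums include Tfrc, the most abundant of the list, which many cell types express and whose lowest library was iKO 1 (178 CPM, against 189 to 312 in the others). Hbb-bt, a beta globin with the smallest p of the list in iKO against control, stood at 18.1 to 30.9 CPM in the tamoxifen controls, 39.5 and 38.5 with corn oil, 43.4 in iKO 1 and 9.16 to 21.2 in iKO 2 to 6. Slc4a1, the anion exchanger of red cells, stood at 12.9, 15.5, 8.09 and 22.9 CPM in the tamoxifen controls, 54.3 and 33.5 with corn oil, and 44.9, 7.43, 12.2, 3.64, 8.81 and 8.05 in iKO 1 to 6. Klf1, the transcription factor of red-cell precursors, stood at 0.354 to 0.965 CPM, 2.25 and 1.67, 1.66, and 0.299 to 0.818 CPM in tamoxifen controls, corn-oil controls, iKO 1 and iKO 2 to 6. Slc4a1, Klf1 and Mpo were chosen as genes of single lineages after their values had been seen, and they are extremes of their lists. Klf1 and Slc4a1 had the highest corn-oil to tamoxifen ratios of the red-cell markers (3.25 and 2.96). The others ran from 0.875 (Tfrc) to 2.44 (Rhd). Mpo had the highest ratio of the neutrophil and precursor list (2.13), which went down to 1.03 (S100a9).

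**Figure D4:**
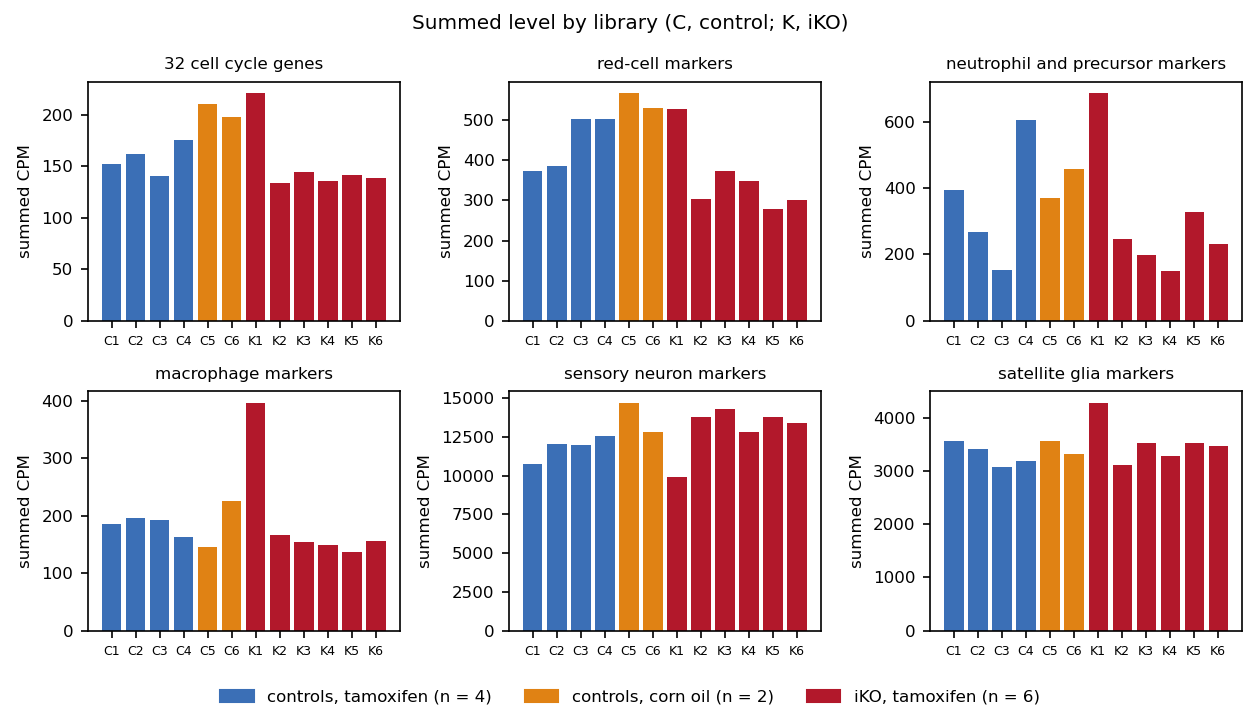
Summed CPM (linear axes from 0) of the 32 cell cycle genes and of 5 lists of cell type markers in each library, controls 1 to 6 (C) and iKO 1 to 6 (K), coloured by injected agent and group. The cell cycle genes and the red-cell markers share the high libraries C5, C6 and K1, and the macrophage markers are high in K1 alone, at 397 CPM.

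In the fit of controls 5 and 6 against iKO 5 and 6, where Mki67, Top2a and Cenpf fell, 7 of 12 red-cell markers fell too (median -1.85), and 1 of 12 markers of neutrophils and their precursors, Mpo (edgeR adjusted p = 0.0454; list median -0.64), beside 0.267% of all genes called lower. Without iKO 1, where Ccna2, Cenpf and Top2a fell in iKO against control, 9 of 12 red-cell markers were at an unadjusted p under 0.05, beside 16.2% of all genes, and 0 were called (median -1.06). Other lists had negative medians in that fit too. The endothelial list had 8 of 8 markers at an unadjusted p under 0.05 (median -0.31) and the B-lineage list 5 of 7 (median -1.13). The macrophage list had 6 of 11 (median -0.28) and the fibroblast list 4 of 7 (median -0.22). Small p were few in the neutrophil and precursor list (1 of 12, median -0.73) and the skeletal muscle list (0 of 6, median -0.87). They were also few for T cells (0 of 2, median -0.25), mural cells (1 of 6, median -0.19) and bone and cartilage (0 of 4, median -0.08). Of these lists Kdr (endothelial, -0.32), Cd79b (B-lineage, -0.98) and Dcn (fibroblast, -0.42) fell (edgeR adjusted p = 0.0479, 0.0253 and 0.0219), and 0 macrophage markers were called. The neutrophil and precursor markers, of which 3 of 12 had both corn-oil controls above all tamoxifen controls, summed to 394, 269, 153 and 606 CPM in the tamoxifen controls, 369 and 459 with corn oil, 687 in iKO 1 and 150 to 328 in iKO 2 to 6, so that control 4 was above both corn-oil controls. Control 4 was the highest of the tamoxifen controls for these markers and for the summed cell cycle genes, and control 3 the lowest for both. Genes of granulocyte precursors were present, and Elane stood at 0.775 to 6.35 CPM and Mpo at 2.51 to 16.8 CPM over the 12 libraries. Of the B-lineage precursor markers, Vpreb1 and Igll1 had a count of 0 in 2 libraries each and Rag2 in 4, and their highest counts were 7, 16 and 8, each in iKO 1. The part of these cells in the levels of the cell cycle genes was not tested.

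Over the 12 libraries the other lists had other orders. Satellite glia markers, of the cells that wrap the neurons, summed to 3073 to 3569 CPM in the controls and 3103 to 4277 in the iKO libraries, with a corn-oil to tamoxifen ratio of 1.04. Macrophage and fibroblast markers were high in iKO 1 but had corn-oil to tamoxifen ratios of 1.01 and 0.921. Myelinating Schwann cell markers were higher with corn oil (7 of 7 had both corn-oil controls above all tamoxifen controls) and higher in the iKO than in the control group (7 of 7 positive), so their direction was that of the cell cycle genes in the first comparison and not in the second. The remaining lists had corn-oil to tamoxifen ratios of 1.06 (endothelium), 0.912 (mural cells), 0.963 (B lineage, mostly Ebf1), 1.14 (bone and cartilage) and 1.16 (sensory neurons). Those of skeletal muscle (4.25) and T cells (1.38) came through control 6. T cell markers summed to 12.1 CPM in control 6 and 5.52 in control 5, against 5.99 to 6.75 in the tamoxifen controls.

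A mean of the 32 genes' centred log2 CPM per library was used to rank 15094 genes outside the lists by their likeness over the 12 libraries. It was 0.54 in iKO 1, 0.44 and 0.33 in the corn-oil controls, -0.29 to 0.19 in the tamoxifen controls and -0.32 to -0.17 in iKO 2 to 6. The 10 genes most like it by Pearson's r were Ermap (0.982), Hemgn (0.968), Trim10 (0.966), Tent5c (0.966), Rbm38 (0.957), Cd37 (0.955), Btnl10 (0.955), Myo1f (0.94), Rhag (0.934) and Plbd1 (0.931). Ermap and Rhag encode membrane proteins of red cells, Hemgn a nuclear protein of blood-forming cells, and Cd37 and Myo1f proteins of white blood cells. Ermap stood at 2.64, 3.1, 1.24 and 3.31 CPM in the tamoxifen controls, 9.15 and 5.8 with corn oil, and 7.38, 1.33, 1.99, 1.07, 1.82 and 1.23 in iKO 1 to 6. The points are the same 12 libraries that differ in their makeup, so these values describe an order of libraries.

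Members themselves differed in how closely they followed their common mean over the 12 libraries. Pearson's r with that mean, which includes the gene, was 0.982 for Mki67, 0.975 for Ccnb2, 0.962 for Rrm2, 0.953 for Top2a and 0.949 for Cenpe. It was 0.33 for Bub1b, -0.0866 for Aurka, -0.201 for Ccne2 and -0.506 for Ccne1, so both E cyclins, Aurka and Bub1b did not share the order of libraries of the mitotic genes. Without iKO 1 the r of Mki67 was 0.979 and that of Ccne1 -0.223.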

How the data were processed

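Poly(A) RNA of 12 libraries of adult dorsal root ganglia was sequenced from non-stranded TruSeq libraries, per the labels' protocols. The values are raw gene counts deposited by the authors, whole numbers with no normalization. The submitters' processing notes name bcl2fastq 2.20.0.422, STAR 2.7.8a, featureCounts 2.0.1 and GRCm39. For the annotation release and the counting options, the sources used here give nothing. Gene names were matched by Ensembl identifier for 52083 of 55416 genes (94%), which hold 99.67% of counts.

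CPM is counts over the TMM-scaled library size. The main test was edgeR's quasi-likelihood test (edgeR 4.0.16, R 4.3.3) with group and sex as terms, filterByExpr, Benjamini-Hochberg adjustment over all genes tested and a threshold of 0.05. DESeq2 1.42.0, limma-voom (limma 3.58.1), no low-count filter, a replicate block, and leaving out libraries were alternatives. Each SE quoted with an edgeR fold change was derived from the test, as the size of the log2 fold change over the square root of the F statistic. The procedure was tested on simulated data. The 2 interaction tests, the fit of male libraries alone, and the fit without both iKO 1 and the corn-oil controls were added after the data had been seen. The members and lists were chosen with earlier results of these data known.

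All members are described. Of each pathway list the called genes, or otherwise those with the smallest p and the highest and lowest fold change in a comparison, could be named, and of each marker list the most abundant gene and that with the smallest p. Exon lengths and overlaps came from GENCODE M21 (GRCm38), and promoters from RefSeq GRCm38.p6, both matched by symbol, with no coordinates carried over to GRCm39. Motifs were searched on both strands. Total counts of 13943784 to 20377766 per library set the precision: Ccnb1 rests on 1 to 13 counts.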

Additional observations from a re-analysis of the deposited data

Results flagged for a closer look

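Single libraries stood far from the others of their group for 15 values, among 99 groups of 4 to 6 libraries examined, where chance gives about 1 in 20. Of these, 12 belong to iKO 1 among the 6 iKO libraries. It was far above the others for Mki67 (30.6 CPM), Mcm6 (14.3), Top2a (11.9), Rrm2 (7.11), Mcm3 (6.95), Birc5 (5.56), Cenpe (5.19), Cenpf (4.17), Cdc20 (3.15) and Ccnb2 (3.1), and for the summed level of the 32 genes (221 CPM). It was far below them for Ccne1 (9.19 CPM). Among the 4 tamoxifen controls, control 3 was low for Mcm5 (5.49 CPM) and control 2 high for Kif11 (6.39 CPM). Control 3 was low for Kif20a among all 6 controls (2.24 CPM). The 32 genes share libraries, so these are not independent.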

How the results depend on the processing

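The median of the 32 genes kept its direction in iKO against corn oil and in corn oil against tamoxifen under every alternative run. In iKO against control it was 0.00 in sample numbers 1 to 8 alone, which include iKO 1. It was -0.58 in numbers 14 to 17 alone, where 3 members were called. Without iKO 1 and the corn-oil controls 4 were called. That fit called the most genes of those listed below, so this count is not read as particular to the members. In male libraries only 2 were called, beside 0.603% of all genes called lower. Cdk1 turned to 0.15 without the corn-oil controls and to 0.41 in numbers 1 to 8 alone. With no low-count filter 7 members were called in iKO against corn oil and 3 in corn oil against tamoxifen, for a reason not tested. Members called in iKO were counted with each library left out. They ranged from 0 to 3 against control, 0 to 4 against tamoxifen and 0 to 6 against corn oil. The higher figures came without iKO 1. Against tamoxifen the median then ranged from -0.19 to 0.10, Cdk1 from -0.28 to 0.33 and Mki67 from -0.69 to 0.06, the low ends without iKO 1 and the high ends without control 4. The male against female median ranged from -0.17 to 0.09 (without iKO 1). Within the iKO group, libraries 5 and 6 against 1 to 4 had a median of -0.24 with no sex term, where all of 1 to 4 enter.

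Genes called in iKO against control were 281 with DESeq2, 253 with no filter, 235 without the corn-oil controls, 35 in numbers 1 to 8, 82 in numbers 14 to 17, 1586 without iKO 1 and the corn-oil controls, and 92 (without control 1) to 364 (without iKO 1) with a library left out. Against tamoxifen they were 559 (DESeq2), 927 (no filter) and 98 (without control 1) to 1459 (without iKO 1). Against corn oil they were 59 (DESeq2), 349 (no filter), 39 (no sex term) and 3 (without control 5) to 160 (without iKO 1). In corn oil against tamoxifen they were 183 (DESeq2), 659 (no filter), 2 (no sex term), 6 (male controls only) and 0 to 18 (without control 5). Within the iKO group they were 13 (DESeq2), 9 (no filter) and 0 to 890 (without iKO 1), and male against female 17 (DESeq2) and 16 (no filter). The cause was not tested.

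With the replicate number as a block, 79 genes and 0 members were called in iKO against control. Same-numbered libraries correlated at 0.217, 0.175, -0.153, 0.0715, 0.185 and 0.0473 in numbers 1 to 6, and 3 of the 6 matched their own number best, so pairing in all 6 numbers was not shown. The fit within the iKO group without iKO 4 could not be made, since sex and numbering then coincide. Low counts limit Ccnb1, Aurkb and Bub1 most.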
